A study of Mus musculus with 9 samples.

Results

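The STAT family genes examined here are Stat2, Stat3, Stat4, Stat5a, Stat5b and Stat6, found by gene symbol: 6 of the 55401 genes in the count table. Of these, 5 passed the filter on low counts and are among the 13501 genes tested, and Stat4 did not pass. The data are poly(A) RNA sequencing of primary mouse macrophages, collected from the peritoneum after thioglycollate, a sterile irritant, had recruited them there. The 9 libraries came from 3 genotypes with n = 3 each: wild type (WT), homozygous Stat6S807A/S807A (SA) and homozygous Stat6S807E/S807E (SE). All were plated in DMEM that held 10% fetal bovine serum and were taken once they had adhered for a short time, with no added cytokine named in the labels. Alanine at residue 807 cannot be phosphorylated, and glutamate carries a negative charge that is often used to imitate a phosphate. The labels name no Cre driver or tissue limit for the alleles, and give no strain, sex or age for these groups. Separate animals are not named for the libraries of a genotype, so the spread behind each p-value is that between samples and may be technical.

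STAT proteins are latent transcription factors. A cytokine binds its receptor, the JAK kinases on the receptor's tail phosphorylate a STAT on a tyrosine, and the STAT forms a dimer, enters the nucleus and binds DNA. STAT6 answers to interleukin-4 and interleukin-13 and drives the alternative activation genes of macrophages. STAT2 works with IRF9 in the interferon-activated complex ISGF3, STAT3 carries interleukin-6 and interleukin-10 signals, STAT4 carries interleukin-12 signals mainly in lymphocytes, and STAT5A and STAT5B carry signals of GM-CSF and the interleukin-2 family. Induced SOCS proteins and CISH damp the same receptors.

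Stat6 (ENSMUSG00000002147) lies on the plus strand of mm10 at chr10:127642986-127660957. Codon 807 is in exon 22 of 22 of the annotated transcript Stat6-201, at chr10:127659886-127659888, with 30 coding codons after it. The reference sequence around the mutated residue, from the GENCODE M21 transcript at chr10:127659874-127659903, is shown with the serine codon in capitals.
Stat6 codon 807, WT reference: gaggcaggagggTCCttaggaagccagccc
The count table holds no bases, so the alleles themselves could not be read from it. The 250 bases before the start sites of Stat6 and Stat2 are shown next, because these are the mutated gene and the member with the next largest change from WT. They are RefSeq sequences of build GRCm38.p6, in the direction of transcription, at chr10:127642736-127642985 and chr10:128270248-128270497, both on the plus strand. All 6 members had an entry, with 9 windows in all. Each window was searched on both strands for TTCNNNNGAA, the spacing that STAT6 prefers, TTCNNNGAA, the spacing of the other STAT dimers, and GAAANNGAAA, the core of the element bound by ISGF3. A stretch can match more than 1 of them, and matches are in capitals.
Stat6: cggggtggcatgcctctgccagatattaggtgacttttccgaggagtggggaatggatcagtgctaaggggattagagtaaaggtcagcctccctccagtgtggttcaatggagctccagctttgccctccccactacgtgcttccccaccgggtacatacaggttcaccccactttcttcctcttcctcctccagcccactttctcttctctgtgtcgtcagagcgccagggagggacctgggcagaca
Stat2: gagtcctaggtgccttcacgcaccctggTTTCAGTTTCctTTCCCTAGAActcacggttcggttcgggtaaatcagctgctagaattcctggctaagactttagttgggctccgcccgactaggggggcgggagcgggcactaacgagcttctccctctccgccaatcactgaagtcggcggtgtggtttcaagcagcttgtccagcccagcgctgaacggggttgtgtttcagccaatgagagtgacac
The Stat6 window held none of the 3 motifs. The Stat2 window held GAAANNGAAA, read on the opposite strand, 222 bases before the start site, and TTCNNNNGAA 210 bases before it. Of 32851 promoter windows of this length, 2.98% held GAAANNGAAA and 5.85% held TTCNNNNGAA. A second window of Stat4 held 1 GAAANNGAAA, and the windows of Stat3, Stat5a and Stat5b held none of the 3.

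Levels are given as CPM, counts relative to the TMM-scaled library total. Library totals ran from 17286617 to 24618608 counts, so 3 counts correspond to 0.122 to 0.174 CPM. WT replicate 2 and SE replicate 3 stood apart from the other libraries of their genotype. The mean chi-square per gene was 7.50 to 16.1 for pairs with WT replicate 2 and 8.56 to 9.72 for pairs with SE replicate 3, against 3.61 to 5.26 for the other pairs. The members' calls, and the named genes whose call changes, are given also without them. All 10 macrophage markers, such as Adgre1 and Csf1r, were detected in every genotype, with a summed level of 19238 to 24464 CPM. At an edgeR adjusted p under 0.05, 1 rose and 1 fell in SA vs WT, where 1.97% and 2.1% of all tested genes did. In SE vs WT none rose and 3 fell (2.35% and 2.69%), and in SE vs SA 1 rose and 2 fell (4.77% and 5.42%). The 10 T and NK cell markers summed to 4.34 to 6.51 CPM, nearly all of it Cd4, which averaged 5.45 CPM in WT and 5.25 and 4.02 CPM in the mutants. Cd3e, Cd3g, Nkg7, Ncr1 and Gzma were at 0 in all libraries. The 4 eosinophil markers summed to 21.1 to 28.5 CPM, and the 3 endothelial markers to 16.9 to 25.4 CPM. By the same cut, 1 eosinophil marker fell in SE vs SA. Of the endothelial markers, 1 fell in SA vs WT and 1 rose in each SE comparison. Summed over 10 markers, the fibroblast and mesothelial list reached 3.71 to 5.63 CPM in WT, 35.8 to 40.7 in SA and 7.32 to 11.4 in SE. SA was thus highest, and SE also lay above WT without overlap. Of 4 tested, 3 rose in SA vs WT (1.97% of all tested genes), 1 rose in SE vs WT (2.35%) and 3 fell in SE vs SA (5.42%). Of these 10 markers 4, 2 and 4 were at 0 in WT, SA and SE. Most of the SA sum was collagen: Col1a1 read 1.39, 19.2 and 4.17 CPM, and Col1a2 read 1.56, 14.1 and 2.79. Pdgfrb read 1.47, 1.84 and 1.34 CPM, and the mesothelial markers Msln and Krt19 were at 0 in all libraries. The dendritic list of 5 markers, nearly all of it Itgax, which macrophages also express, summed to 1152 to 1186 CPM in WT, 954 to 1018 in SA and 1286 to 1344 in SE. The part of these lists in the results was not tested. In bulk RNA, fewer cells of a type and less RNA per cell cannot be told apart.

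Stat6, the mutated gene, was the one member called in any comparison, and it rose in SE against both other genotypes. In the order of replicates 1 to 3, as for the other members, it read 198, 201 and 187 CPM in the WT libraries, 194, 199 and 199.6 in the SA libraries and 291, 284 and 312 in the SE libraries. The WT and SA libraries overlapped, and every SE library lay above all 6 others: the lowest SE value was 1.41 times the highest of them. The means were 195 ± 7.52 in WT, 198 ± 2.91 in SA and 296 ± 14.5 CPM in SE (SD, n = 3 each). Stat6 rose 1.51-fold in SE vs WT (log2 difference 0.60 ± 0.06 SE, edgeR adjusted p = 6.27e-06, 95% interval 1.39-fold to 1.65-fold). Against SA it rose 1.49-fold (log2 difference 0.58 ± 0.06 SE, adjusted p = 5.15e-06, interval 1.38-fold to 1.63-fold). In SA vs WT the log2 difference was 0.02 ± 0.06 with an adjusted p of 0.946, and its interval reached from 0.932-fold to 1.10-fold. Without WT replicate 2 and SE replicate 3, a choice made after seeing the data, the rise was 1.5-fold against WT and 1.45-fold against SA. By size of p, Stat6 stood in place 18 of all tested genes in SE vs WT, and 232 of the 317 genes called higher there had a smaller fold. The counts do not separate new transcription from slower decay, and they do not show protein or phosphorylation.

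**Figure D1:**
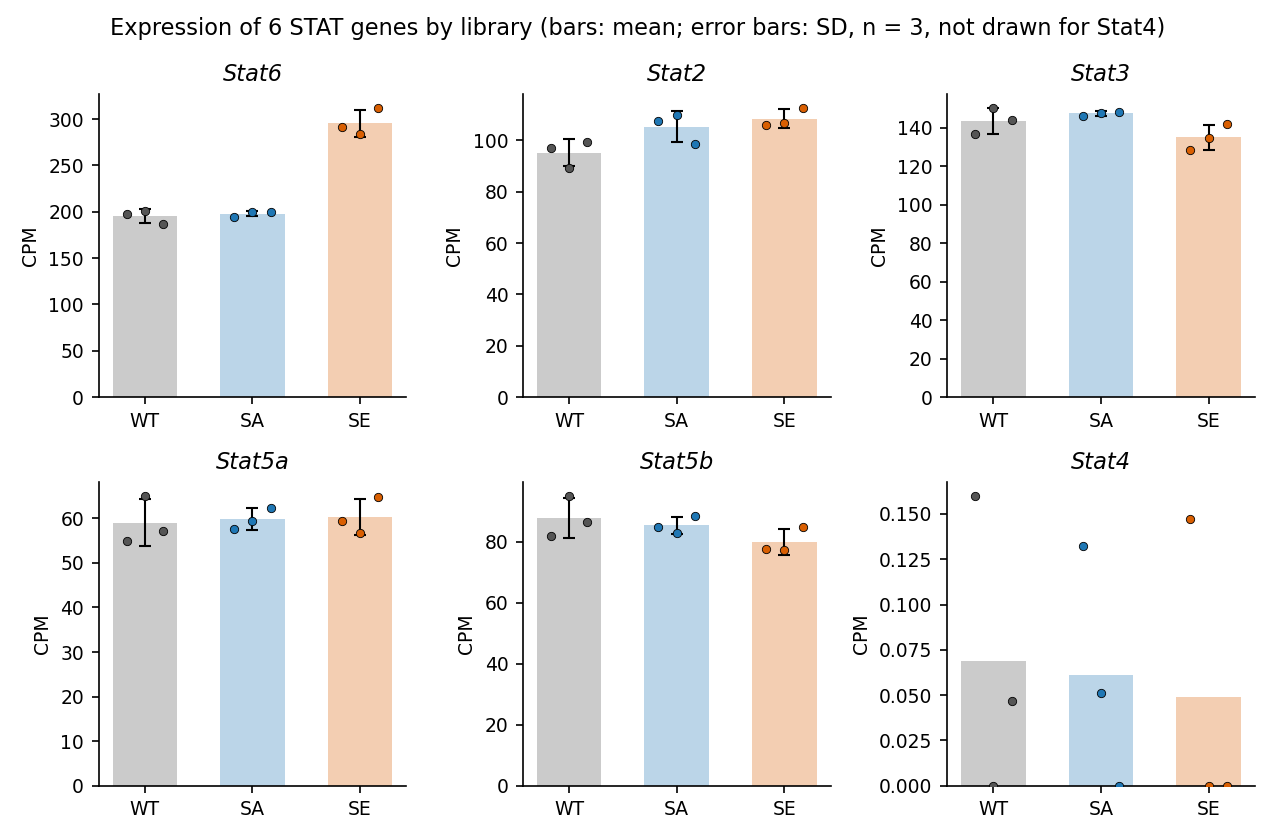
CPM of each STAT member in each library by genotype, with points for libraries, bars for the mean and error bars for the SD (n = 3, not drawn for Stat4). The 3 SE libraries of Stat6 lie at 284 to 312 CPM, above all WT and SA libraries, while Stat4 stays at or below 0.160 CPM.

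Stat2, the interferon partner of IRF9 (ENSMUSG00000040033, chr10:128270559-128292849, plus strand), lies on the same chromosome as Stat6. It read 97.0, 89.3 and 99.3 CPM in the WT libraries, 107.7, 109.9 and 98.6 in the SA libraries and 105.9, 106.8 and 112.7 in the SE libraries. All 3 SE libraries lay above all 3 WT libraries, and SA overlapped both. The difference of 1.14-fold in SE vs WT did not pass (log2 difference 0.19 ± 0.06 SE, unadjusted p = 0.00958, edgeR adjusted p = 0.112). In SA vs WT it was 1.11-fold (adjusted p = 0.305), and in SE vs SA the log2 difference was 0.04 ± 0.06 (adjusted p = 0.765). Without WT replicate 2 and SE replicate 3, the SE vs WT value was 1.08-fold with an adjusted p of 0.270.

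Stat3, the interleukin-6 and interleukin-10 transducer (ENSMUSG00000004040, chr11:100885098-100939540, minus strand), read 136.8, 150.1 and 144.0 CPM in the WT libraries, 146.1, 147.9 and 148.3 in the SA libraries and 128.5, 134.5 and 141.9 in the SE libraries. Every SE library lay below every SA library, and SE overlapped WT. The log2 difference was -0.13 ± 0.06 SE in SE vs SA (unadjusted p = 0.0451, edgeR adjusted p = 0.207) and -0.09 ± 0.06 in SE vs WT (adjusted p = 0.462). Stat3 passed in SE vs SA under 2 alternatives: with library totals in place of TMM (adjusted p = 0.0435), and without WT replicate 2 and SE replicate 3 (adjusted p = 0.0331). In SA vs WT the log2 difference was 0.04 ± 0.06 (adjusted p = 0.877).

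Stat5a (ENSMUSG00000004043, chr11:100859351-100885169, plus strand) and Stat5b (ENSMUSG00000020919, chr11:100780731-100850724, minus strand) are close paralogs side by side on the chromosome. Stat5a read 54.9, 64.9 and 57.2 CPM in the WT libraries, 57.6, 59.5 and 62.4 in the SA libraries and 59.3, 56.7 and 64.8 in the SE libraries. Its groups overlapped in each comparison, and the log2 differences were 0.02, 0.03 and 0.01 ± 0.08 SE in SA vs WT, SE vs WT and SE vs SA (edgeR adjusted p = 0.951, 0.867 and 0.957). Stat5b read 82.0, 94.9 and 86.7 CPM in the WT libraries, 84.9, 83.0 and 88.4 in the SA libraries and 77.7, 77.5 and 84.8 in the SE libraries. Its groups overlapped too, with log2 differences of -0.04, -0.13 and -0.09 ± 0.07 (adjusted p = 0.895, 0.311 and 0.442). Their annotated transcripts share 608 stretches of 50 bases, 8.21% of those of Stat5a and 11% of those of Stat5b. Reads there may not be assignable to one of the genes. The sum of both genes gave log2 differences of -0.01, -0.06 and -0.05 ± 0.07 (adjusted p = 0.970, 0.671 and 0.714). Stat5a also overlaps the end of Stat3 on the opposite strand, and the strand setting of the counting is not given in the sources used here. Between Stat6 and any other member no 50-base stretch was shared.

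Stat4 (ENSMUSG00000062939, chr1:51987148-52107189, plus strand) had counts of 4, 0 and 1 in the WT libraries, 3, 1 and 0 in the SA libraries, and 3, 0 and 0 in the SE libraries. Its highest value was 0.160 CPM, close to what 3 counts are worth, so no difference was detectable at this depth.

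Of the 5 members tested, none was called in SA vs WT, where 4.07% of all tested genes were called at an adjusted p under 0.05 (1.97% higher and 2.1% lower). DESeq2 and limma-voom also called none there. An unadjusted p under 0.05 in edgeR is a looser cut than that of these shares. It was passed by 1 of 5 in SA vs WT (Stat2), 2 in SE vs WT (Stat2 and Stat6) and 2 in SE vs SA (Stat3 and Stat6). In SE vs WT 1 of 5 rose and none fell, against 5.04% of tested genes called in either direction and 2.35% called higher. In SE vs SA 1 of 5 rose, against 10.2% called and 4.77% called higher. In SA vs WT none of the 5 had libraries that stood apart from those of WT, where 9.6% of tested genes lay higher and 9.71% lower without overlap. In SE vs WT 2 of 5, Stat2 and Stat6, lay higher without overlap (10.1% of tested genes) and 0 lay lower (10.4%). In SE vs SA 1 of 5, Stat6, lay higher (14.2%) and 1, Stat3, lower (14.1%). The median log2 difference of the 5 members was 0.02, 0.03 and 0.01 in SA vs WT, SE vs WT and SE vs SA, and that of all tested genes was 0.00 in each. With library totals in place of TMM, the share of calls that were higher moved from 46.8% to 33.9% in SE vs SA.

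**Figure D2:**
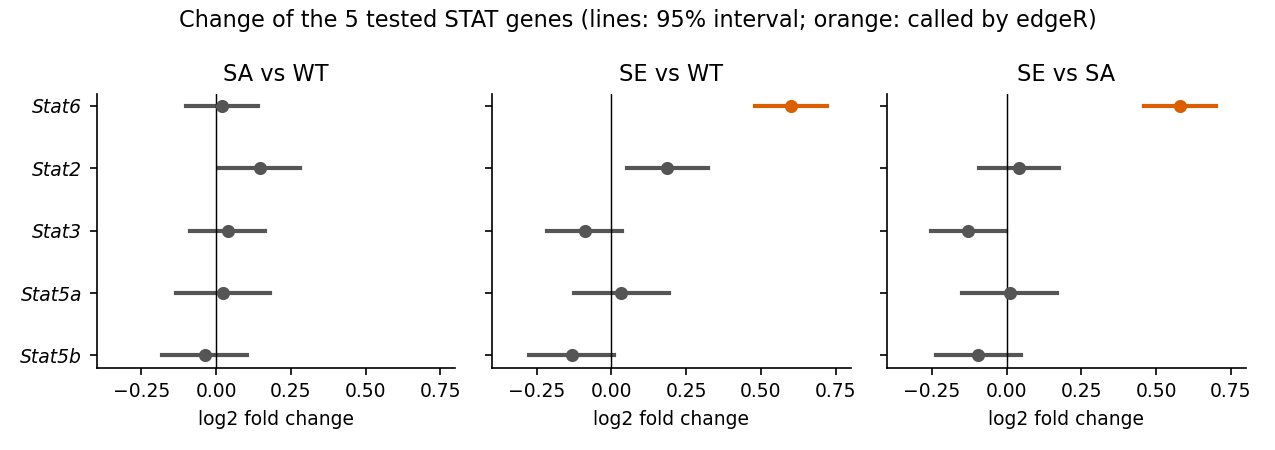
log2 fold change of each tested member with its 95% interval in the 3 comparisons. Stat6 stands at 0.60 in SE vs WT and 0.58 in SE vs SA, and the interval of another member that reaches furthest from 0, that of Stat2 in SE vs WT, ends at 0.323.

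Between genes, levels were compared as CPM per kb of annotated exon length. In WT, Stat6 was highest at 44.3 ± 1.71 CPM per kb (SD, n = 3), followed by Stat2 at 16.1 ± 0.888, Stat5b at 15.9 ± 1.18, Stat3 at 15.1 ± 0.700 and Stat5a at 8.27 ± 0.735. The libraries of Stat2 and Stat5b overlapped, as did those of Stat5b and Stat3, so these neighbours in the order did not differ beyond their spread. Stat6 lay 2.76 times above Stat2, and Stat3 lay 1.82 times above Stat5a, both without overlap. In SA the order was Stat6 (44.9 ± 0.661), Stat2 (17.8 ± 1.02), Stat3 (15.5 ± 0.121), Stat5b (15.4 ± 0.492) and Stat5a (8.39 ± 0.339), where Stat3 and Stat5b overlapped. In SE it was Stat6 (67.2 ± 3.30), Stat2 (18.3 ± 0.619), Stat5b (14.4 ± 0.754), Stat3 (14.2 ± 0.706) and Stat5a (8.45 ± 0.574), where Stat5b and Stat3 overlapped. Stat4 was lowest in all genotypes. Over the 9 libraries, Stat6 lay above 93.6% of the 13489 tested genes with a length, and Stat5a above 63.9%. As a share of all counts on the 6 members, Stat6 held 32.5% to 34.8% in WT libraries, 32.9% to 33.4% in SA and 43.1% to 43.9% in SE. The share of Stat3 was 24.1% to 25.1% in WT, 24.7% to 24.8% in SA and 19.4% to 20.4% in SE. These shares are taken of the members' own sum, so the rise of Stat6 in SE lowers the shares of the other members there. In CPM the Stat3 libraries of SE and WT overlapped.

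The members also varied within genotypes. Stat3, Stat5a and Stat5b were each highest in replicate 2 among the WT libraries and in replicate 3 among the SE libraries, the libraries that stood apart, and so was Stat6. Stat2 was lowest in WT replicate 2 and highest in SE replicate 3. Over the 9 libraries, which share genotype and depth, Pearson's r of log2 CPM was 0.84 between Stat3 and Stat5b, 0.61 between Stat5a and Stat5b, -0.66 between Stat6 and Stat3, and 0.54 between Stat6 and Stat2. These values describe 9 libraries only.

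Of 13 annotated genes whose span lay within 100 kb of Stat6, 7 were tested, and edgeR, DESeq2 and limma-voom called none in any comparison. Of all tested genes edgeR called 4.07%, 5.04% and 10.2% in SA vs WT, SE vs WT and SE vs SA. With 7 genes, a count of 0 lies close to these shares. An unadjusted p under 0.05 in edgeR is a looser cut than that of these shares. It was passed by 1 of the 7 in SA vs WT (Gpr182), 2 in SE vs WT (Gpr182 and Zbtb39) and 0 in SE vs SA. Nab2, a corepressor of EGR transcription factors, overlaps the 3′ end of Stat6 by 40 bases on the opposite strand. It read 71.9 ± 4.26 in WT, 72.3 ± 1.30 in SA and 73.7 ± 4.28 CPM in SE, with a log2 difference of 0.04 ± 0.07 SE in SE vs WT (edgeR adjusted p = 0.821). Lrp1, a large endocytic receptor of macrophages, read 3687 ± 508, 3451 ± 446 and 3306 ± 559 CPM (SE vs WT adjusted p = 0.568). Nemp1, a nuclear membrane protein gene, read 9.51 ± 0.771, 8.62 ± 0.583 and 9.92 ± 1.19 CPM (adjusted p = 0.825). Zbtb39, a zinc finger gene, read 12.1 ± 1.54, 11.0 ± 0.543 and 9.50 ± 0.386 CPM. Its log2 difference in SE vs WT was -0.34 ± 0.11 (adjusted p = 0.0873), and it passed without WT replicate 1. Gpr182, Gm16217 and Gm16230 had 100, 158 and 83 counts over all libraries, and the standard errors of their log2 differences were 0.34 to 0.48. Among the 9 tested neighbours of Stat2, Cnpy2 rose 1.21-fold in SE vs SA (adjusted p = 0.0181), a call lost without any 1 of the SA libraries. Among the 3 tested neighbours of Stat3, Atp6v0a1, a subunit of the proton pump that acidifies lysosomes, rose 1.26-fold in SE vs WT (1740 ± 79.7 against 1380 ± 79.8 CPM, adjusted p = 0.00365). It rose 1.17-fold in SE vs SA (adjusted p = 0.0286), which was lost with the replicate block, without SA replicate 1, 2 or 3 and without SE replicate 1 or 3. Without WT replicate 2 and SE replicate 3 it was also called in SA vs WT (adjusted p = 0.0467). None of the 2, 3 and 6 tested neighbours of Stat4, Stat5a and Stat5b was called.

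**Figure D3:**
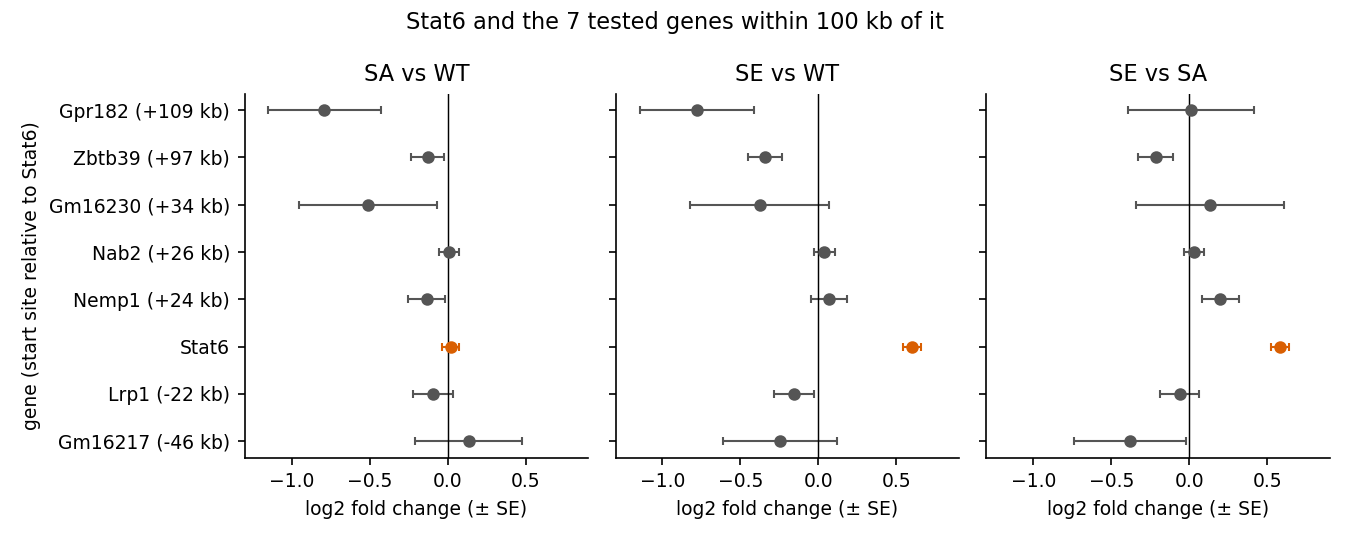
log2 fold change (± SE) of Stat6 and of the 7 tested genes whose span lies within 100 kb, ordered by the distance of their start sites from that of Stat6, in each comparison. Stat6 stands at 0.60 in SE vs WT and 0.58 in SE vs SA, and none of its neighbours was called. Of all tested genes 4.07%, 5.04% and 10.2% were called in SA vs WT, SE vs WT and SE vs SA.

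The genes whose pattern was most like that of Stat6 included 3 of its listed targets. The target list was written with results of these data known, so this overlap is no independent evidence. Likeness was Pearson's r of log2 CPM over the 9 libraries, among 9551 genes with a mean of at least 5 CPM. The 8 highest were Socs1 (r = 0.99), Bcar3 and H2-Q7 (0.98 each), Pdcd1lg2 (0.98), Mcf2l, Gpc1, Cish and Smap2 (0.97 each). Socs1, an inhibitor of JAK kinases, read 20.2 ± 1.30 in WT, 19.7 ± 0.897 in SA and 33.6 ± 1.46 CPM in SE. Pdcd1lg2, which encodes the PD-1 ligand PD-L2, read 31.1 ± 1.98, 35.2 ± 3.33 and 59.7 ± 2.95 CPM. Cish, a feedback inhibitor of cytokine receptors, read 8.47 ± 1.2, 8.62 ± 0.897 and 23.8 ± 3.24 CPM. Gpc1, a cell surface proteoglycan gene, read 82.4 ± 3.03, 92.7 ± 7.54 and 162.2 ± 14.2 CPM. H2-Q7 belongs to a family of near-identical MHC genes, so its 5.77, 6.50 and 20.5 CPM may hold reads of its copies. Mcf2l (52.5, 57.1 and 79.6 CPM), Bcar3 (85.3, 84.7 and 113.4) and Smap2 (441.7, 448.6 and 506.8) complete the group. All 8 were highest in SE, which follows from picking them by likeness to Stat6. When 1 library was left out, 4 to 6 of the 8 were again in the top 8. The genes most like the other members were Naa25 and Tamm41 for Stat2 (r = 0.97 and 0.96), Itpr2 and Pcnt for Stat3 (0.97 each), Unc93b1 and Gna12 for Stat5a (0.98 each), and Fuca1 and Tle3 for Stat5b (0.98 and 0.97). Pcnt and Tle3 were not called, but without WT replicate 2 and SE replicate 3 both were called as lower in SE vs SA (adjusted p = 0.00509 and 0.044). With 9 libraries and 9551 genes, high values of r are found for every member.

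**Figure D4:**
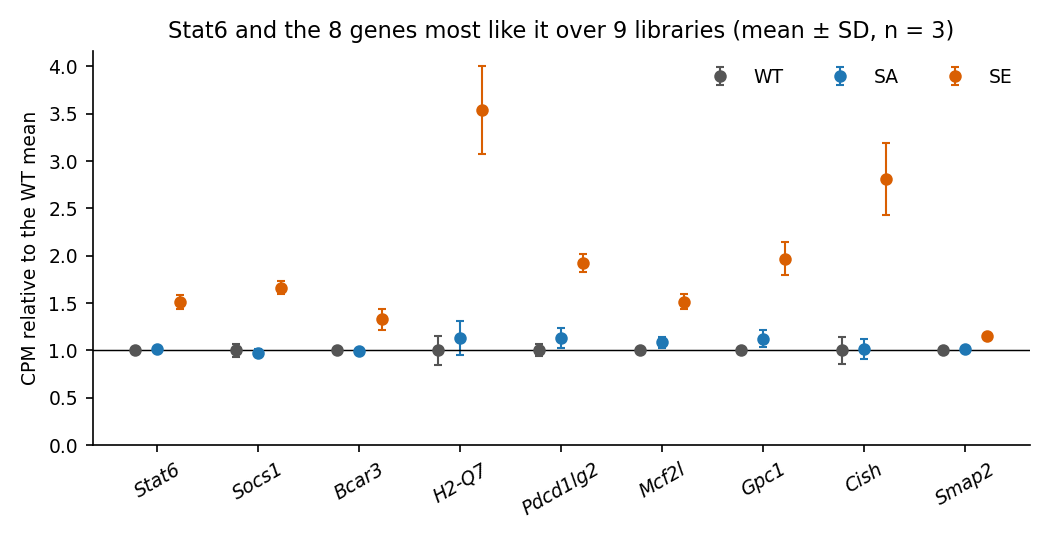
CPM of Stat6 and of the 8 genes with the highest Pearson's r to it, relative to each gene's WT mean, as the mean ± SD of 3 libraries per genotype. All 8 are higher in SE than in WT and SA, as Stat6 is, and the lowest r among them is 0.97. The genes were picked for this likeness.

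The receptors and JAKs that feed the STATs were described with a list of 30 genes, of which 25 were tested. In SE vs WT none rose and 4 fell, against 2.35% of all tested genes called higher and 2.69% called lower. In SA vs WT 1 rose and 3 fell (1.97% of tested genes called higher and 2.1% lower), and in SE vs SA 5 rose and 6 fell (4.77% and 5.42%). The list's median log2 difference was -0.01, -0.02 and 0.04 in SA vs WT, SE vs WT and SE vs SA. Il4ra, the interleukin-4 receptor chain, read 80.6 ± 5.81 in WT, 72.7 ± 4.29 in SA and 76.9 ± 8.85 CPM in SE, with no call. Il2rg, the common gamma chain, read 72.1 ± 2.29, 84.3 ± 6.40 and 80.3 ± 1.26 CPM (SA vs WT adjusted p = 0.0652, and 0.0281 without WT replicate 2 and SE replicate 3). It was called as higher in SA vs WT in 5 of 16 alternatives, among them DESeq2 and library totals in place of TMM. Il13ra1, the partner chain for interleukin-13, read 7.34 ± 1.12, 8.12 ± 1.22 and 5.76 ± 0.746 CPM. It fell 1.41-fold in SE vs SA (adjusted p = 0.0429), a call lost in 8 of 16 alternatives. Among these were DESeq2, limma-voom and the fit without WT replicate 2 and SE replicate 3. Of the kinases, Jak1 read 273 ± 4.44, 263 ± 11.1 and 270 ± 5.21 CPM, Jak3 34.8, 32.6 and 31.9, and Tyk2 162, 159 and 161, and none of them was called. Jak2, at 102 ± 7.96, 103 ± 4.21 and 119 ± 10.0 CPM, did not pass either (SE vs WT adjusted p = 0.0936). In SE vs SA its adjusted p was 0.0718, but 0.00381 without WT replicate 2 and SE replicate 3.

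Other receptor genes moved more. Il7r, the interleukin-7 receptor chain, fell 1.30-fold in SA vs WT (363 ± 15.8 against 472 ± 40.2 CPM, edgeR adjusted p = 0.00342) and rose 1.23-fold in SE vs SA (adjusted p = 0.0127, lost in 5 of 16 alternatives). Csf2rb, the signalling chain of the GM-CSF receptor that feeds STAT5, fell 1.24-fold in SA vs WT (1569 ± 41.2 against 1948 ± 102 CPM, edgeR adjusted p = 0.0063), a call lost without SA replicate 1. It rose 1.36-fold in SE vs SA (2128 ± 145 CPM in SE, adjusted p = 0.000195), as its near copy Csf2rb2 did (1.27-fold, adjusted p = 0.00085). Reads may be split between these copies. Lifr, a receptor chain that feeds STAT3 and is common in stromal cells, read 7.29 ± 0.825 in WT, 10.6 ± 0.797 in SA and 4.72 ± 0.311 CPM in SE. It fell 1.54-fold in SE vs WT (adjusted p = 0.00871, lost without WT replicate 3) and 2.24-fold in SE vs SA (adjusted p = 1.38e-05). It rose 1.45-fold in SA vs WT (adjusted p = 0.0115, lost without WT replicate 1 or without SA replicate 2 or 3). The summed fibroblast and mesothelial list, mostly collagen genes, was highest in the same SA libraries, and its part in the Lifr values was not tested. Il12rb2, the interleukin-12 receptor chain that feeds STAT4, fell 1.62-fold in SE vs SA (4.52 ± 0.230 against 7.35 ± 1.35 CPM, adjusted p = 0.00481). Leaving out 1 library moved the number of receptor and JAK genes called in SE vs WT from 4 to between 0, without WT replicate 3, and 8, without WT replicate 2.

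Of the negative regulators, 19 of 19 listed genes were tested, none was called in SA vs WT by edgeR, and 4 rose and none fell in SE vs WT (2.35% of all tested genes called higher, 2.69% lower). In SA vs WT, 4 of 19 passed at an unadjusted p under 0.05. That cut is looser than the one behind the 4.07% of all tested genes called there at an adjusted p under 0.05. DESeq2 and limma-voom each called 1 in SA vs WT, Ptpn6. Without WT replicate 2, edgeR called 2 there. In SE vs SA 4 rose and 2 fell (4.77% and 5.42%). The medians were -0.04, -0.01 and 0.05. The 4 that rose in both SE comparisons were Cish, Socs1, Socs2 and Usp18, each an inhibitor induced by cytokine signalling. Cish rose 2.80-fold in SE vs WT (edgeR adjusted p = 1.45e-06) and 2.77-fold in SE vs SA (adjusted p = 7.56e-07). Socs1 rose 1.67-fold (adjusted p = 2.45e-05) and 1.71-fold (adjusted p = 7.5e-06). Socs2, a target of STAT5, read 7.97 ± 0.488, 9.31 ± 0.616 and 12.9 ± 0.298 CPM in WT, SA and SE, a rise of 1.62-fold (adjusted p = 0.000468) and 1.39-fold (adjusted p = 0.00515). Usp18, a brake on interferon receptors, rose 1.24-fold in SE vs WT (adjusted p = 0.0351), a call lost in 6 alternatives, and 1.27-fold in SE vs SA (adjusted p = 0.0113), lost without SA replicate 1 or 3. Socs3, the feedback inhibitor of STAT3, read 2.02 ± 0.578, 2.24 ± 0.0952 and 1.91 ± 0.169 CPM and was not called, and neither were the 4 Pias genes. Ptprc and Ptpn6, phosphatase genes of blood cells, fell 1.31-fold and 1.18-fold in SE vs SA (adjusted p = 0.00114 and 0.0154), the latter lost without SA replicate 1 or without SE replicate 2. Ptpn6 was called as higher in SA vs WT (adjusted p = 0.002) and Ptprc as lower in SE vs WT (adjusted p = 0.0167) when WT replicate 2 and SE replicate 3 were left out.

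The DNA-binding partners and coactivators did not pass in any comparison: 0 of 15 tested genes were called, where 4.07%, 5.04% and 10.2% of all tested genes were called in SA vs WT, SE vs WT and SE vs SA, with medians of 0.06, -0.01 and -0.06. At an unadjusted p under 0.05, a looser cut than that of these shares, the counts were 2, 2 and 3 in the same comparisons. DESeq2 called 1 in SE vs WT, the import factor gene Kpnb1 (adjusted p = 0.0369). Without WT replicate 2 and SE replicate 3, 4 of the 15 were called in SE vs SA, namely Ncoa3, Ndufa13, Ncoa1 and Parp14. That fit called 1903 genes in SE vs SA, against 1376 with all libraries. Irf9, the DNA-binding partner of STAT2, read 57.2 ± 1.27, 61.0 ± 2.18 and 56.8 ± 1.46 CPM. Parp14 and Snd1, cofactors described for STAT6, read 191, 197 and 180 CPM and 157, 161 and 177 CPM. Snd1 was called as higher in SE vs WT without WT replicate 2 (adjusted p = 0.0284) and without both libraries (adjusted p = 0.0384), and Ncoa3 in SA vs WT without both (adjusted p = 0.0368).

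Of 31 genes on the list of STAT6 targets, 27 were tested: 15 rose and none fell in SE vs WT, 11 rose and 1 fell in SE vs SA, and 3 rose and 2 fell in SA vs WT. Of all tested genes 2.35%, 4.77% and 1.97% rose in these comparisons, and 2.69%, 5.42% and 2.1% fell. The medians were 0.11, 0.30 and 0.20 in SA vs WT, SE vs WT and SE vs SA. The list was written with results of these data known, so its direction is no independent evidence. Chil3, a chitinase-like secreted protein, read 30.2 ± 4.27 in WT, 19.4 ± 2.94 in SA and 122 ± 13.6 CPM in SE. It rose 4.04-fold in SE vs WT (edgeR adjusted p = 3.17e-08) and fell 1.56-fold in SA vs WT (adjusted p = 0.00428, lost without WT replicate 2 and SE replicate 3). Arg1, which breaks down arginine, read 45.5 ± 3.53, 47.0 ± 4.37 and 121 ± 5.54 CPM, a rise of 2.66-fold against WT (adjusted p = 2.25e-08). Retnla, a secreted marker of alternative activation, read 226 ± 34.2, 181 ± 28.7 and 466 ± 41.4 CPM. Its 2.06-fold rise against WT (adjusted p = 0.0003) was lost without WT replicate 2 and SE replicate 3, and its 2.58-fold rise against SA (adjusted p = 1.87e-05) was kept in every alternative. Mgl2, a lectin gene, rose in both mutants: 13.3 ± 0.302 in WT, 27.3 ± 0.802 in SA and 26.8 ± 2.70 CPM in SE (2.05-fold and 2.01-fold, adjusted p = 1.18e-06 and 1.98e-06). Mrc1, the mannose receptor, also rose in both, 1.17-fold in SA (adjusted p = 0.0295, lost in 7 alternatives) and 1.23-fold in SE (adjusted p = 0.00507). Tgm2, a transglutaminase gene, fell 1.30-fold in SA vs WT (117 ± 3.75 against 153 ± 14.3 CPM, adjusted p = 0.00589). Ccl22, a chemokine gene, was the member that fell in SE vs SA, 1.24-fold (adjusted p = 0.0168, lost without SA replicate 1 or 2). Other textbook targets, such as Clec7a (1247 ± 110, 1209 ± 56.6 and 1341 ± 134 CPM) and Il4ra, were not called. Clec7a was called as higher in SE vs SA when WT replicate 2 and SE replicate 3 were left out (log2 difference 0.22, adjusted p = 0.00269).

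**Figure D5:**
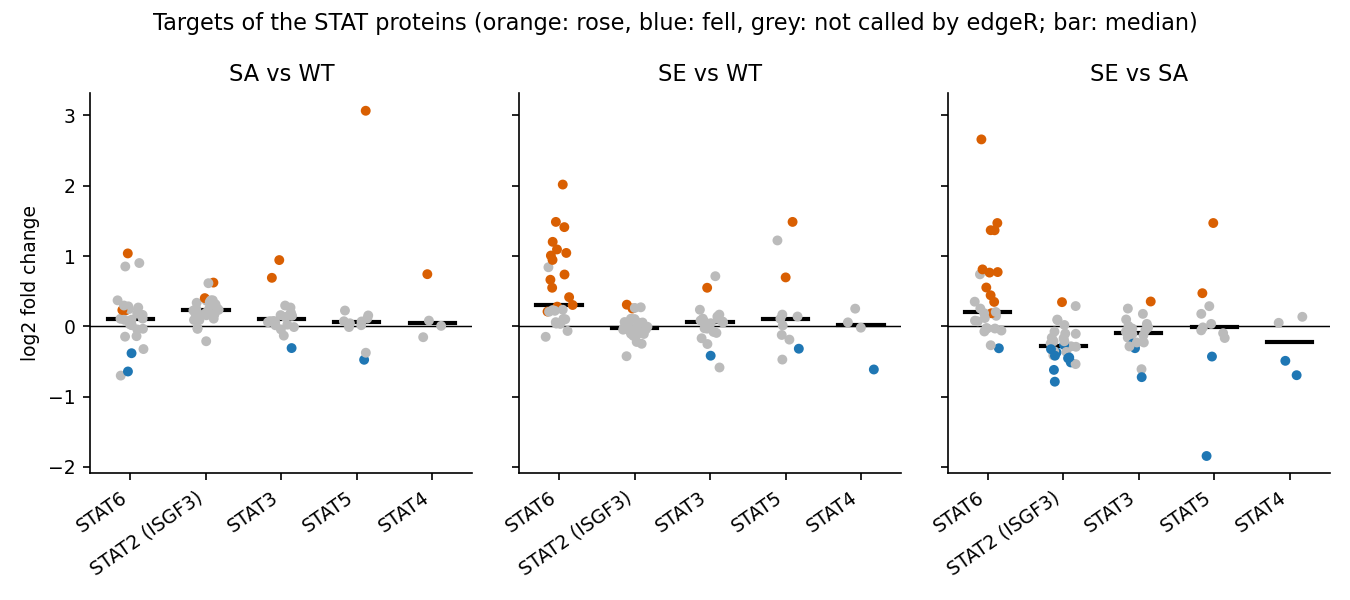
log2 fold change in the 3 comparisons for the tested genes of the 5 target lists, 1 point per gene (orange rose, blue fell, grey not called) with each list's median as a bar. The STAT6 targets have a median of 0.30 in SE vs WT, where 15 of 27 rose (2.35% of all tested genes). The STAT2 targets have a median of -0.28 in SE vs SA, where 9 of 28 fell (5.42% of all tested genes). The lists were chosen with earlier results of these data known, so their directions are no independent evidence.

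Some listed STAT6 targets carry the STAT6-type motif close to the start site, and sites of 3 called genes and 1 not called are shown to set sequence beside response. Each line is 30 bases of RefSeq build GRCm38.p6 in the direction of transcription, with TTCNNNNGAA in capitals. The sites are at chr19:29410827-29410856 (plus strand, 82 bases before the start site), chr16:48842454-48842483 (plus, 145), chr6:16898622-16898651 (minus, 200) and chr6:129472891-129472920 (minus, 131).
Pdcd1lg2: catgctccagTTCCTCAGAAaccattctgg
Retnla: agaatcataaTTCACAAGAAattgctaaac
Tfec: ccattgtaaaTTCTGGGGAAaaatgtttat
Clec7a: catttcagttTTCTTCAGAAgttacagcct
Of the 22 listed targets with a promoter entry, 8 (36.4%) held the motif, against 6.76% of 27025 genes. Of those 8, 6 were tested, and 2 rose in SE vs WT, Pdcd1lg2 (1.92-fold, edgeR adjusted p = 1.58e-06) and Retnla. Tfec, a transcription factor gene, rose with them in SE vs SA (1.27-fold, adjusted p = 0.0173), a call lost in 4 of 16 alternatives. Among the 14 tested targets with an entry and no motif in the window, 9 rose in SE vs WT and 5 rose in SE vs SA. Targets that rose and targets that were not called stood both with and without the motif. The Cish window held none of the 3 motifs. The Socs1 window, at chr16:10785537-10785786 on the minus strand, is shown because Socs1 was most like Stat6, and its capitals mark a pair of overlapping GAAANNGAAA matches 83 and 77 bases before the start site.
Socs1: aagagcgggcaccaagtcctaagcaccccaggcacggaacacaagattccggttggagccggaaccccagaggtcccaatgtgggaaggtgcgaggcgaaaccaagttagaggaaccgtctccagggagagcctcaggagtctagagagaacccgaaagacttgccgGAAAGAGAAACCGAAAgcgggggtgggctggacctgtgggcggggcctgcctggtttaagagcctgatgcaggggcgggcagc

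All 28 listed interferon-stimulated genes, targets of the STAT2 complex ISGF3, were tested. Of these, 1 rose and 9 fell in SE vs SA, with a median of -0.28, and 2 rose and none fell in both SA vs WT (median 0.23) and SE vs WT (median -0.03). Of all tested genes 4.77% rose and 5.42% fell in SE vs SA, 1.97% and 2.1% in SA vs WT, and 2.35% and 2.69% in SE vs WT. Leaving out 1 library moved the number called from 10 to between 4, without SA replicate 1, and 11 in SE vs SA, from 2 to between 2 and 6, without SA replicate 3, in SA vs WT, and from 2 to between 0, without WT replicate 1, and 5, without WT replicate 2, in SE vs WT. Without both WT replicate 2 and SE replicate 3, 8 were called in SA vs WT. That fit called 903 genes there, against 549 with all libraries. Irf7, a transcription factor that amplifies interferon production, read 88.5 ± 1.70 in WT, 117 ± 8.35 in SA and 85.3 ± 1.69 CPM in SE. It rose 1.32-fold in SA vs WT (edgeR adjusted p = 0.000662) and fell 1.37-fold in SE vs SA (adjusted p = 0.00015). Ifit3, an antiviral protein gene, fell 1.73-fold in SE vs SA (7.22 ± 0.853 against 12.4 ± 1.37 CPM, adjusted p = 0.000719). Oas2, which senses double-stranded RNA, fell 1.36-fold (64.2 ± 1.07 against 87.2 ± 7.30 CPM, adjusted p = 0.000522), and was also called as lower in SE vs WT without WT replicate 2 and SE replicate 3 (adjusted p = 0.00528). Mx1, an antiviral GTPase gene, fell 1.54-fold in SE vs SA (adjusted p = 0.0462), with overlapping libraries. The call was lost in 6 alternatives, among them the fit without WT replicate 2 and SE replicate 3. Ifi44 rose 1.54-fold in SA vs WT (adjusted p = 0.0085) and fell 1.43-fold in SE vs SA (adjusted p = 0.0177), the latter lost without SA replicate 1 or 2 or without SE replicate 1. The 2 genes called in SE vs WT, where none fell, were Bst2 and Usp18. They rose 1.19-fold and 1.24-fold there (adjusted p = 0.0281 and 0.0351), each call lost in 6 alternatives. Bst2 was called as higher in SA vs WT without WT replicate 2 and SE replicate 3 (adjusted p = 0.00335). Stat2 itself was not called in any of these comparisons. Ifit3 carries GAAANNGAAA upstream, as 8 of 21 listed genes with an entry did (38.1%), against 3.46% of 27025 genes. The site at chr19:34583397-34583426 (plus strand, 122 bases before the start site, motif on the opposite strand) is shown as an example.
Ifit3: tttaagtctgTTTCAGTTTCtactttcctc

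The lists of the other members are set against the same shares of all tested genes: 1.97% higher and 2.1% lower in SA vs WT, 2.35% and 2.69% in SE vs WT, and 4.77% and 5.42% in SE vs SA. Of 21 STAT3 targets 20 were tested, with 2 rising and 1 falling in SA vs WT, 1 and 1 in SE vs WT, and 1 and 3 in SE vs SA. Each of these counts is 3 genes or fewer. Cebpb, a transcription factor of inflammatory macrophages, fell 1.24-fold in SA vs WT (80.9 ± 4.47 against 100.2 ± 2.61 CPM, edgeR adjusted p = 0.00666, lost without SA replicate 3) and rose 1.28-fold in SE vs SA (adjusted p = 0.0014). Saa3, an acute phase gene, read 8.92 ± 0.473, 14.3 ± 3.36 and 8.70 ± 0.582 CPM, and fell 1.65-fold in SE vs SA (adjusted p = 0.00335). Myc, a target shared by STAT3 and STAT6, rose 1.46-fold in SE vs WT (adjusted p = 0.0012), and was called as higher in the other 2 comparisons without WT replicate 2 and SE replicate 3 (adjusted p = 0.0166 in SA vs WT and 0.0266 in SE vs SA). Timp1, an inhibitor of matrix proteases, rose 1.92-fold in SA vs WT (1.77 ± 0.156 against 0.944 ± 0.262 CPM, adjusted p = 0.0494, lost in 8 alternatives). Vegfa, the vascular growth factor gene, fell 1.34-fold in SE vs WT (adjusted p = 0.00945, lost without WT replicate 3 or SE replicate 1), and Fos fell 1.24-fold in SE vs SA (adjusted p = 0.0257, lost without SA replicate 1 or 3 or SE replicate 1 or 2). Of 12 STAT5 targets 11 were tested, with 1 rising and 1 falling in SA vs WT, 2 and 1 in SE vs WT, and 2 and 2 in SE vs SA. The pair that rose in SE was Cish and Socs2, which also stand among the negative regulators. Ccnd2, a cyclin gene, rose in SA vs WT (0.830 ± 0.204 against 0.0989 ± 0.0523 CPM, adjusted p = 0.000929) and fell in SE vs SA (0.226 ± 0.0615 CPM in SE, adjusted p = 0.00955, lost without SA replicate 1 and with DESeq2). Its WT level is below what 3 counts are worth, so no fold is given. The summed fibroblast and mesothelial list, mostly collagen genes, was also highest in SA, and its part in the Ccnd2 and Timp1 values was not tested. Osm, a cytokine gene induced through STAT5, fell 1.39-fold in SA vs WT (6.27 ± 0.351 against 8.73 ± 0.378 CPM, adjusted p = 0.0165, lost without WT replicate 3 or without SA replicate 1 or 2). Ccnd3, another cyclin gene, fell 1.35-fold in SE vs SA (19.1 ± 1.2 against 25.7 ± 0.198 CPM, adjusted p = 0.0023). Of 9 STAT4 targets 4 were tested: 1 rose and none fell in SA vs WT, 1 fell in SE vs WT, and 2 fell in SE vs SA. Il12rb2, given above, was the gene that fell in both SE comparisons (1.53-fold against WT, adjusted p = 0.0191, lost without WT replicate 3 or SE replicate 1 or 2). Il18rap, a chain of the interleukin-18 receptor, rose 1.67-fold in SA vs WT (8.30 ± 0.599 against 4.95 ± 0.294 CPM, adjusted p = 0.001) and fell 1.40-fold in SE vs SA (5.92 ± 0.433 CPM in SE, adjusted p = 0.014, lost without SA replicate 1 or SE replicate 1).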

How the data were processed

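Poly(A) RNA of 9 mouse peritoneal macrophage libraries, 3 per genotype, was sequenced. The values are raw read counts per Ensembl gene, as the authors deposited them. Reads were aligned with HISAT2 2.1.0 to mm10 and counted with featureCounts, per the submitters' processing notes. No version of the latter, annotation release, strand setting or rule for reads with several matches is given in the sources used here. By ID, 55141 of 55401 genes matched GENCODE M21, and 260 did not. Sequences came from GENCODE M21 transcripts and RefSeq GRCm38.p6 promoter windows.

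One edgeR 4.0.16 model (R 4.3.3) held all 9 libraries, with genotype as its sole factor, TMM scaling and the robust quasi-likelihood option. Its filter was filterByExpr, with a count of at least 10 and a total of at least 15. It had 6 residual degrees of freedom and a biological coefficient of variation of 6.75%. Each contrast was tested with the 2-sided F test, and a gene was called (rose or fell) where its Benjamini-Hochberg adjusted p, taken over the 13501 tested genes, was under 0.05. Fold changes come from the model, and a fall is written as the higher level over the lower. DESeq2 1.42.0, limma-voom (limma 3.58.1), other scalings and filters, a replicate block and leaving out libraries were alternatives.

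The members and gene lists were chosen with earlier results of these data known. Named by rule were the members, per list and contrast the 2 called genes of largest change in each direction, 8 direct partners of the members, the tested genes within 100 kb of Stat6, and the genes most like each member (8 for Stat6, 2 for the others). Other names, among them Jak2, Tyk2, Arg1, Usp18, Socs3, Oas2, Bst2, Parp14, Snd1, Kpnb1, Atp6v0a1, Cnpy2 and the genes whose promoter sites are shown, were chosen after their values were seen. The fit was tested on simulated data. Limits from 3 counts cover counting error only.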

Additional observations from a re-analysis of the deposited data

How the results depend on the processing

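The calls of Stat6 held in all 16 alternatives run for each SE comparison, with log2 differences of 0.56 to 0.63 in SE vs WT (highest adjusted p = 0.000246) and 0.53 to 0.61 in SE vs SA (highest adjusted p = 0.000167). Stat2 was called in none. The number of members called in SE vs SA became 2, Stat6 and Stat3, with library totals only, and 2 without WT replicate 2 and SE replicate 3. The cause was not tested. Leaving out 1 library at a time gave 0 members in SA vs WT and 1 in each SE comparison. Over all tested genes, calls ranged from 297 (without WT replicate 3) to 534 in SA vs WT, from 292 (without WT replicate 3) to 1097 (without WT replicate 2) in SE vs WT, and from 781 (without SA replicate 2) to 1220 in SE vs SA, against 549, 680 and 1376 with all libraries. Without both WT replicate 2 and SE replicate 3 they were 903 in SA vs WT, 1215 in SE vs WT and 1903 in SE vs SA. With only the 2 genotypes compared, 438 were called in SE vs WT. Of 243 pairs of a named gene and a comparison, 80 were called, 48 of these in every alternative, and 0 reversed. A reversal was a change of sign where either fit called the gene. Some pairs called in neither fit did change sign, such as Stat6 in SA vs WT (log2 difference -0.007 to 0.047).

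Replicate numbers are shared by the genotypes, and no label says that they mark a shared day or litter. Same-numbered libraries of different genotypes had deviations correlated at -0.195 to 0.105, and differently numbered ones at -0.261 to 0.270, so no pairing by number was visible. With 3 libraries per genotype, this check cannot exclude a shared day or litter. With the replicate block, 0, 1 and 1 members were called in SA vs WT, SE vs WT and SE vs SA, and 500, 568 and 1189 genes, and Stat6 had an adjusted p of 4.31e-05 in SE vs WT.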
